A study of Mus musculus and Homo sapiens with 28 samples.

Results

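The T cell receptor complex and lineage genes described here are 10 mouse genes, chosen by name with earlier results of these data known. They are the CD3 chain genes Cd3d, Cd3e, Cd3g and Cd247 and the kinase gene Lck. The others are the coreceptor genes Cd4 and Cd8a and the surface receptor genes Cd2, Cd5 and Cd6. All 10 were found among the 46078 rows of the deposited mouse table, and all 10 were among the 15916 genes that were abundant enough to be tested (a mean log2 value of at least 3). Their lowest value in any library was 3.74, so none passed only through a group where it was high. RNA sequencing was done on 24 libraries from mice carrying tumours of Renca, a mouse renal carcinoma line, grown under the skin of the back from cells mixed with Matrigel. The 4 groups are 5 libraries labelled SETD2 KD and VE822, 6 labelled SETD2 KD and untreated, 6 labelled WT and VE822, and 7 labelled WT and untreated. SETD2 KD stands for knockdown of the histone methyltransferase SETD2, and VE822 is an inhibitor of the DNA damage checkpoint kinase ATR, given by mouth at 60 mg/kg on 5 days in a row each week once tumours could be felt. All groups share the tumour line, the Matrigel and the injection site. How the knockdown was made, whether its cells were 1 clone, and the strain, age and sex of the mice were not given in the sources used here. Nor do they say that each library is a separate animal, and the p-values therefore describe the spread among libraries, which may be technical in part. The tissue label reads kidney, although the protocol describes tumours under the skin.

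A T cell recognises a peptide held on an MHC molecule through an antigen receptor whose variable chains cannot signal alone. They depend on the CD3 delta, epsilon and gamma chains and on the zeta chain, the product of Cd247, whose cytoplasmic tails carry the tyrosine motifs that LCK phosphorylates. The coreceptors CD4 and CD8 bind MHC class II and class I molecules and bring LCK to the receptor. CD2 is an adhesion receptor that binds CD48 in the mouse, CD5 dampens receptor signalling, and CD6 binds ALCAM. Several of these genes are also used outside T cells: natural killer cells express Cd247, Lck and Cd2, and subsets of mouse dendritic cells express Cd8a or Cd4.

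The deposited values are regularised logarithms (rlog) on the log2 scale, made by the authors over the 24 libraries together. Differences are therefore log2 differences, and rlog pulls differences of low genes towards 0. All 10 genes were on the low side, since between 11.6% (Cd5) and 38.0% (Lck) of the tested genes had a lower mean, so their folds may be understated. The values are not corrected for gene length, and levels are compared only within a gene. The depth of the libraries cannot be read from rlog values. The median rlog of the tested genes ran from 9.13 to 9.21 over the 24 libraries.

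Some libraries stand apart. Setd2, the gene named in the labels, had rlog values of 10.70 to 10.88 in SETD2 KD-labelled untreated libraries and 10.74 to 10.91 in WT-labelled untreated libraries, and the ranges overlapped. It had 9.42 to 9.96 in SETD2 KD-labelled and 9.58 to 10.28 in WT-labelled VE822 libraries. The Setd2 values of untreated tumours thus do not separate the genotype labels, and genotype is given throughout as the label only. The mean of 8 skeletal muscle genes was above an rlog of 6 in 4 libraries, namely WT-labelled VE822 libraries 1 (9.31), 2 (6.96) and 4 (7.84) and WT-labelled untreated library 4 (6.59). SETD2 KD-labelled VE822 library 4 had a loading of 0.822 on the second principal component, against loadings of at most 0.245 in every other library. Test outcomes of the T cell receptor complex and lineage genes that change without these 5 libraries are given both ways. The other gene lists, the overlap counts and the exact tests were not repeated without them.

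On the GRCm38 assembly, with GENCODE vM21 gene models, 3 of the CD3 genes sit side by side on chromosome 9. Cd3g (ENSMUSG00000002033, 44969572 to 44980431, minus strand) and Cd3d (ENSMUSG00000032094, 44981786 to 44987339, plus strand) are transcribed away from each other with 1354 bases between them and no annotated gene in the gap. Cd3e (ENSMUSG00000032093, 44998740 to 45009627, minus strand) lies 11400 bases beyond Cd3d. Cd5 (ENSMUSG00000024669, 10717116 to 10739002) and Cd6 (ENSMUSG00000024670, 10789341 to 10830058) are also neighbours, both on the minus strand of chromosome 19 and 50338 bases apart. Cd247 (ENSMUSG00000005763) is on chromosome 1 at 165788681 to 165877277, and Cd2 (ENSMUSG00000027863) on chromosome 3 at 101275899 to 101287939. Lck (ENSMUSG00000000409) is on chromosome 4 at 129548344 to 129573641. Chromosome 6 holds both Cd8a (ENSMUSG00000053977, 71373427 to 71379173) and Cd4 (ENSMUSG00000023274, 124864692 to 124888221). All 10 are protein-coding. Cd247 overlaps Pou2f1 on the opposite strand, Cd3e overlaps the annotated antisense gene Gm48719, and Lck overlaps the miRNA gene Mir8119. Whether read counting used strand was not given in the sources used here, and reads of these overlapping genes may be mixed.

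Promoters of the 3 neighbouring CD3 genes are shown because these genes moved almost together across the libraries, and those of Lck because its gene has a pair of starts that a value per gene cannot separate. Each line gives the 250 bases before an annotated start in the direction of transcription, from RefSeq on GRCm38.p6. Capitals mark the E-box CACCTG or CAGGTG (the same site on the other strand), the form that the E proteins of T cell development bind. The windows are chr9:44981536-44981785 (plus strand) for Cd3d, chr9:44980432-44980681 (minus strand) for Cd3g, chr9:45009612-45009861 (minus strand) for Cd3e, and chr4:129573642-129573891 and chr4:129558373-129558622 (minus strand) for the distal and the proximal start of Lck.
Cd3d: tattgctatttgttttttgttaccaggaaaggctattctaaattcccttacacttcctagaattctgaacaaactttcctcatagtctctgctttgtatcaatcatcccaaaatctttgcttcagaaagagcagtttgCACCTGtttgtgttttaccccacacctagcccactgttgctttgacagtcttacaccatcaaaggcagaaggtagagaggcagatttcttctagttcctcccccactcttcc
Cd3g: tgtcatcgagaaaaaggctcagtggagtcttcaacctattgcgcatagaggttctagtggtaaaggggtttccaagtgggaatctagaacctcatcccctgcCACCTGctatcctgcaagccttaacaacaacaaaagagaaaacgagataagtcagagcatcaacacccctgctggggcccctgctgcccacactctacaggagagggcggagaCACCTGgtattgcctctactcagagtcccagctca
Cd3e: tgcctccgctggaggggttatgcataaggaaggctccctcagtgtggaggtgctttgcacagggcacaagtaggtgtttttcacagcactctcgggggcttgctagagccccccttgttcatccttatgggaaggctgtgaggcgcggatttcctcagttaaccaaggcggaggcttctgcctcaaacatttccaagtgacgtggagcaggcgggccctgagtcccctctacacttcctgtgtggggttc
Lck distal: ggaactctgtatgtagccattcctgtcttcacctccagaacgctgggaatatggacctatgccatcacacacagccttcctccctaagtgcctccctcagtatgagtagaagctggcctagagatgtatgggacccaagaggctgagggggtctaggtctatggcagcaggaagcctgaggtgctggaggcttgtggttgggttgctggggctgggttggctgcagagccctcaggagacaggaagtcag
Lck proximal: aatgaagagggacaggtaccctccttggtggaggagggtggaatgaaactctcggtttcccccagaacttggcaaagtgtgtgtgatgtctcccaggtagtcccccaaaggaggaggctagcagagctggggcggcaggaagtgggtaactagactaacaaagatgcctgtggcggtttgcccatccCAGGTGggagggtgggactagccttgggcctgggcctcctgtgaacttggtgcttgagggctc

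The promoter table held 7 of the 10 genes with 8 promoters. Cd2, Cd4 and Cd6 were not matched. Counting back from the base before the start as -1, the E-box began at -112 in Cd3d, at -148 and -35 in Cd3g, and at -63 before the proximal start of Lck. It was also found in Cd247 (at -10) and Cd5 (at -174 and -69), and these letters are in neither the Cd3e, the Cd8a nor the distal Lck window. Thus 5 of 8 promoters held it, beside 17.2% of the 32851 promoters in the table. The ETS core GGAA or TTCC was in 8 of 8, beside 93.4% of all promoters. The RUNX core TGTGGT or ACCACA was in 1 of 8, the distal Lck promoter, beside 14%. No match overlapped a match of another motif. The motifs were chosen after the sequences were read, and a match is a description of the letters, not of a bound site.

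VE822 was accompanied by higher levels of most T cell receptor complex and lineage genes under both genotype labels. Among SETD2 KD-labelled libraries, 9 of 10 genes rose with VE822 and Cd247 did not pass the test (limma, Benjamini-Hochberg adjustment over all 15916 genes, threshold 0.05). Of all tested genes, 10.6% rose and 11.6% fell in that comparison. Among WT-labelled libraries, 8 of 10 rose, and Cd247 and Cd4 did not pass, against a background in which 17.2% of tested genes rose and 17.5% fell. None of the 10 fell in either comparison. The genes were chosen with earlier results of these data known, so setting their counts beside these shares is a description, not independent support. Without the 5 libraries that stand apart, a choice made after seeing the data, 8 genes rose with the SETD2 KD label (Cd4 no longer passed) and 6 with the WT label (Cd3d and Cd8a no longer passed). In that fit 15.2% (SETD2 KD label) and 14% (WT label) of all tested genes rose. The median difference of the 10 genes was 1.00 in SETD2 KD-labelled libraries, beside 0.01 over all tested genes, and 0.85 in WT-labelled libraries, also beside 0.01. In bulk tumour RNA, a change in the number of T cells and a change in the RNA per T cell cannot be told apart.

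**Figure D1:**
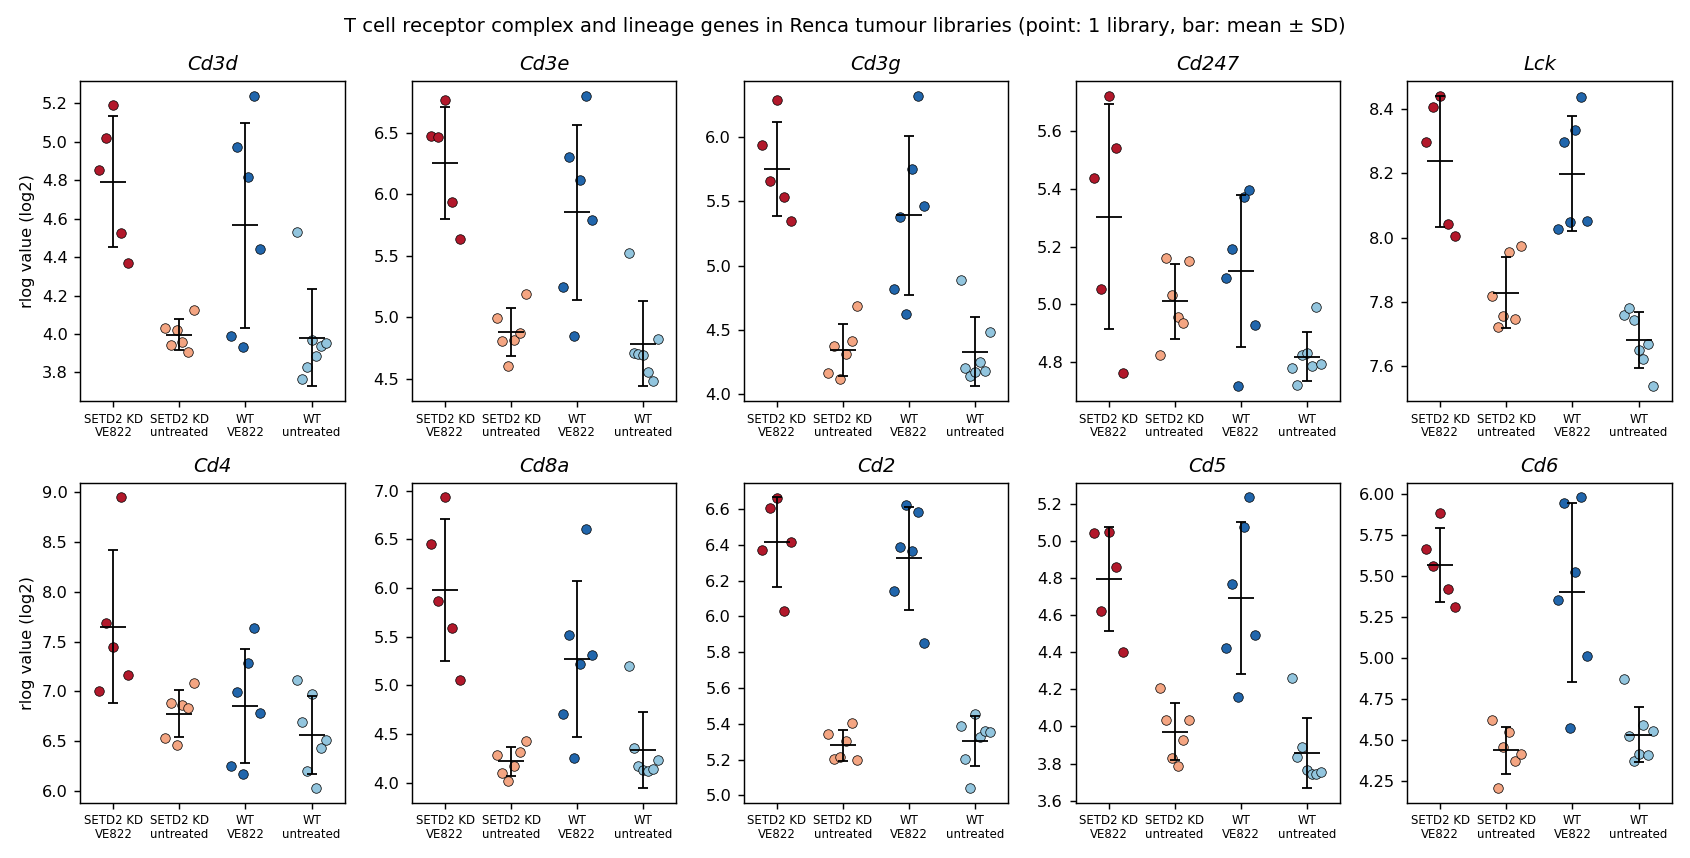
Values of the 10 genes in each of the 24 libraries, on the rlog (log2) scale and with an axis of its own for each gene; points are libraries, and bars give the group mean ± SD. All SETD2 KD-labelled VE822 libraries lie above all SETD2 KD-labelled untreated ones for 8 genes (all but Cd247 and Cd4), whereas WT-labelled libraries are separated for Lck and Cd2.

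Cd3d, which encodes the delta chain, had rlog values of 4.86, 5.02, 5.19, 4.52 and 4.37 in SETD2 KD-labelled VE822 libraries, against 3.91 (lowest), 3.99 (median) and 4.13 (highest) in SETD2 KD-labelled untreated ones. The groups did not overlap, and the difference was 0.80 ± 0.19 (SE), a 1.74-fold higher level (limma, adjusted p = 0.00432). With the WT label, Cd3d had 3.93, 4.63 and 5.24 (lowest, median and highest) under VE822 and 3.77, 3.94 and 4.53 without treatment. Here 3 of 6 VE822 libraries lay above the highest untreated one, and the difference was 0.58 ± 0.18 (adjusted p = 0.013). Without the 5 libraries that stand apart it was 0.56, with an adjusted p of 0.0562, so this call ended.

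Cd3e, the gene of the epsilon chain that pairs with both delta and gamma, had 6.48, 6.47, 6.76, 5.94 and 5.64 in SETD2 KD-labelled VE822 libraries, against 4.60, 4.85 and 5.19 in untreated ones. All 5 VE822 libraries were above all 6 untreated ones, by 1.38 ± 0.26 on average (2.59-fold, limma adjusted p = 0.00056). With the WT label, Cd3e had 4.85, 5.96 and 6.80 under VE822 and 4.48, 4.71 and 5.52 without treatment, a difference of 1.07 ± 0.24 (2.1-fold, adjusted p = 0.00141). The WT-labelled ranges overlapped, because VE822 libraries 1 (5.25) and 3 (4.85) were low and untreated library 1 (5.52) was high.

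Cd3g encodes the gamma chain. It had 5.94, 5.66, 6.28, 5.54 and 5.34 in SETD2 KD-labelled VE822 libraries, against 4.12, 4.34 and 4.69 in untreated ones, without overlap (difference 1.41 ± 0.22, 2.65-fold, limma adjusted p = 8.38e-05). WT-labelled libraries had 4.63, 5.42 and 6.32 under VE822 and 4.14, 4.20 and 4.89 without treatment, a difference of 1.06 ± 0.20 (2.08-fold, adjusted p = 0.000342). The same VE822 libraries, 1 (4.82) and 3 (4.63), were below untreated library 1 (4.89).

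Cd247, the zeta chain gene, differed from the other CD3 genes. It had 5.44, 5.05, 5.72, 5.54 and 4.76 in SETD2 KD-labelled VE822 libraries, against 4.82, 4.99 and 5.16 in untreated ones. VE822 library 5 was below every untreated library, and the difference of 0.29 ± 0.14 did not pass the test (limma adjusted p = 0.128). WT-labelled libraries had 4.71, 5.14 and 5.40 under VE822 and 4.72, 4.79 and 4.99 without treatment, a difference of 0.30 ± 0.13 that also missed the threshold (adjusted p = 0.0674). Both outcomes changed when 1 library was left out. Without SETD2 KD-labelled VE822 library 5 the difference was 0.43 (adjusted p = 0.018), and without WT-labelled VE822 library 3 it was 0.38 (adjusted p = 0.0216). With the WT label Cd247 also passed when only the groups compared were fitted (limma adjusted p = 0.0374). It passed under that label with chromosome medians removed (0.0357) and with library weights (0.0335) as well.

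Lck, the kinase that starts receptor signalling, showed a small rise under both labels. SETD2 KD-labelled VE822 libraries had 8.30, 8.41, 8.44, 8.04 and 8.0, against 7.72, 7.79 and 7.97 in untreated ones, a difference of 0.41 ± 0.09 (1.33-fold, limma adjusted p = 0.0023). WT-labelled libraries had 8.03, 8.17 and 8.44 under VE822 and 7.54, 7.67 and 7.78 without treatment, a difference of 0.52 ± 0.08 (1.43-fold, adjusted p = 5.37e-05). All 11 VE822 libraries lay above all 13 untreated libraries, which was also true of Cd2 among these genes and of 1.16% of all tested genes.

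Among the coreceptors, Cd8a, the gene of the CD8 alpha chain of cytotoxic T cells, had the largest difference of the 10 genes in SETD2 KD-labelled libraries. It had 6.45, 5.87, 6.93, 5.59 and 5.06 under VE822, against 4.02, 4.23 and 4.43 in untreated libraries. Every VE822 library was above every untreated one, and the difference was 1.76 ± 0.32 (3.38-fold, limma adjusted p = 0.000321). WT-labelled libraries had 4.26, 5.27 and 6.61 under VE822 and 4.12, 4.17 and 5.20 without treatment, a difference of 0.93 ± 0.29 (1.91-fold, adjusted p = 0.0153). VE822 libraries 1 (4.70) and 3 (4.26) were below untreated library 1 (5.20), and without the 5 libraries that stand apart the difference was 1.02, with an adjusted p of 0.0538, so this call ended as well.

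Cd4, which marks helper and regulatory T cells and is also expressed by subsets of mouse dendritic cells, depended on which libraries were kept. SETD2 KD-labelled VE822 libraries had 7.0, 7.69, 7.45, 8.95 and 7.17, against 6.46, 6.84 and 7.08 in untreated ones. Library 4, the one that stands apart, held the highest value, and library 1 was below the highest untreated library. The difference was 0.88 ± 0.29 (1.84-fold, limma adjusted p = 0.0303). Without library 4 it was 0.55 (adjusted p = 0.0954), and the call also ended without VE822 library 2 (difference 0.87, adjusted p = 0.0576), untreated library 1 (0.83, adjusted p = 0.062) or untreated library 3 (0.81, adjusted p = 0.0629). WT-labelled libraries had 6.17, 6.88 and 7.63 under VE822 and 6.03, 6.51 and 7.11 without treatment, and the difference of 0.29 ± 0.26 did not pass (adjusted p = 0.423).

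Cd2, the adhesion receptor of T and natural killer cells, had the smallest p of the 10 genes under both labels. SETD2 KD-labelled VE822 libraries had 6.37, 6.61, 6.66, 6.03 and 6.41, against 5.20, 5.26 and 5.41 in untreated ones, a difference of 1.14 ± 0.12 (2.2-fold, limma adjusted p = 6.74e-07). WT-labelled libraries had 5.85, 6.38 and 6.62 under VE822 and 5.04, 5.35 and 5.45 without treatment, a difference of 1.02 ± 0.11 (2.03-fold, adjusted p = 4.44e-07). The lowest VE822 library was above the highest untreated one under both labels, and WT-labelled untreated library 1 (5.39) lay within the range of its group.

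Cd5, the receptor that restrains antigen receptor signalling, had 5.04, 4.62, 5.05, 4.86 and 4.40 in SETD2 KD-labelled VE822 libraries, against 3.79, 3.98 and 4.21 in untreated ones (no overlap, difference 0.83 ± 0.16, 1.77-fold, limma adjusted p = 0.000546). With the WT label it had 4.16, 4.63 and 5.24 under VE822 and 3.74, 3.76 and 4.26 without treatment (0.84 ± 0.14, 1.79-fold, adjusted p = 0.000101). Here 5 of 6 VE822 libraries were above the highest untreated one, and library 3 was not. Cd6, its neighbour, had 5.66, 5.56, 5.88, 5.42 and 5.31 in SETD2 KD-labelled VE822 libraries, against 4.21, 4.44 and 4.62 in untreated ones (no overlap, 1.13 ± 0.18, 2.19-fold, adjusted p = 8.45e-05). Cd6 with the WT label had 4.58, 5.44 and 5.98 under VE822 and 4.37, 4.53 and 4.87 without treatment (0.86 ± 0.16, 1.82-fold, adjusted p = 0.000289), and again 5 of 6 VE822 libraries were above, with library 3 within the untreated range.

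**Figure D2:**
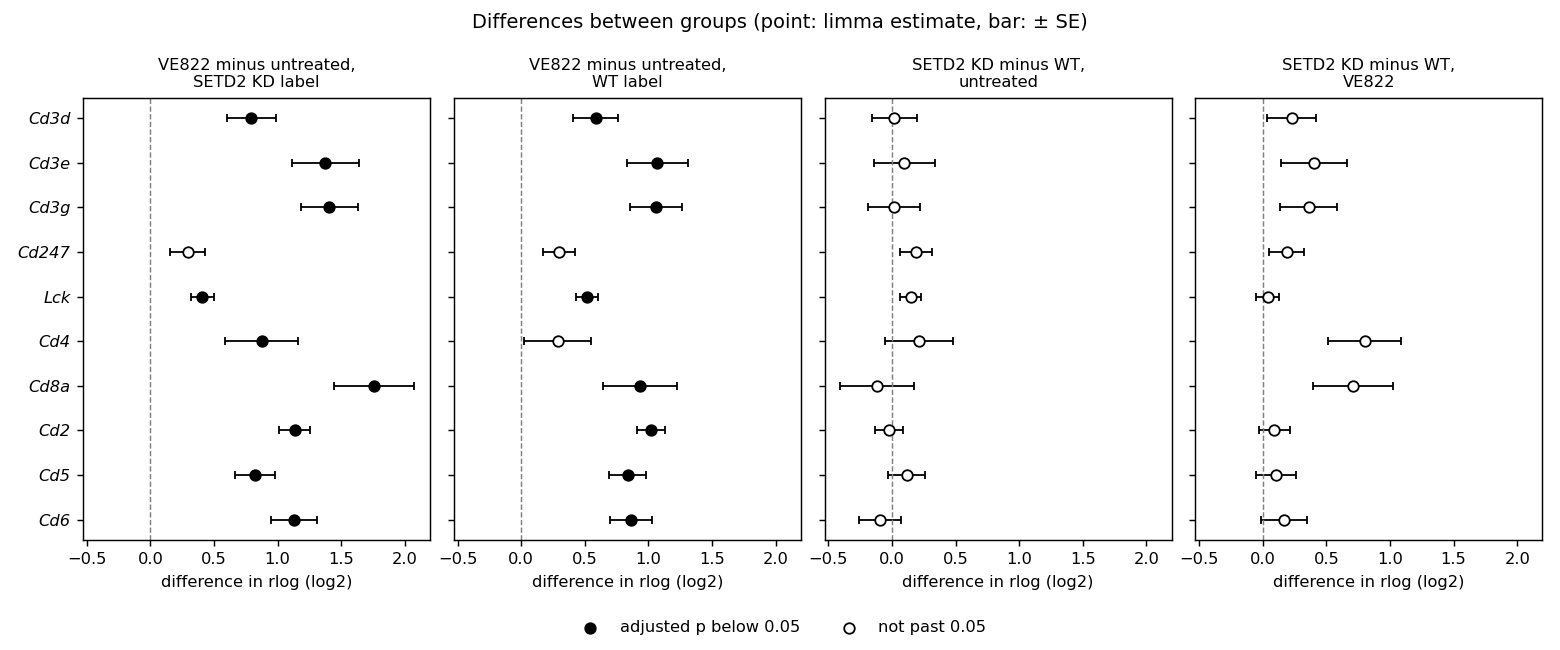
Differences of the 10 genes in 4 comparisons, in rlog (log2) units, as limma estimates ± SE; filled points passed an adjusted p of 0.05. The VE822 comparisons hold 9 (SETD2 KD label) and 8 (WT label) filled points, all to the right of 0, and the genotype label comparisons hold 0.

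Counted over the 10 genes, VE822 and untreated groups did not overlap for 8 genes in SETD2 KD-labelled libraries (all but Cd247 and Cd4), beside 5.3% of all tested genes. In WT-labelled libraries they did not overlap for 2 genes, Lck and Cd2, beside 6.25% of all tested genes. In an exact two-sided permutation test over libraries, without adjustment, the 8 genes had p = 0.00216, the smallest that 5 against 6 libraries can give. Lck and Cd2 in WT-labelled libraries had an exact p of 0.000583, the smallest that 6 against 7 can give. Groups that do not overlap give a p at or near this limit, so these values restate the overlap. Where groups overlapped, the exact p with the SETD2 KD label was 0.00433 for Cd4 and 0.113 for Cd247. With the WT label it ran from 0.00175 (Cd5 and Cd6) to 0.302 (Cd4), with 0.0303 for Cd3d and 0.0117 for Cd8a. For Cd247 in WT-labelled libraries the exact p was 0.0181, while its adjusted limma p was above the threshold. In all, 40 such tests were made, 1 for each gene in each of 4 comparisons.

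The genotype labels did not separate these genes. Between SETD2 KD-labelled and WT-labelled untreated libraries, 0 of 10 genes passed in limma, as did 0% of all tested genes, and 512 tested genes but none of the 10 had an unadjusted p below 0.05. The differences ran from -0.12 ± 0.29 for Cd8a to 0.21 ± 0.26 for Cd4. The exact permutation test gave an unadjusted p of 0.0111 for Cd247, higher by 0.19 in the SETD2 KD-labelled libraries, and of 0.0181 for Lck, higher by 0.15. Both had an adjusted limma p of 1.

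Under VE822, 0 of 10 genes passed between SETD2 KD-labelled and WT-labelled libraries, beside 0.0126% of all tested genes, and 2031 tested genes, 2 of the 10 (Cd4 and Cd8a) among them, had an unadjusted p below 0.05. All 10 estimates were positive, and the largest were those of the coreceptors. Cd4 differed by 0.80 ± 0.29 (limma adjusted p = 0.261), or by 0.48 without SETD2 KD-labelled library 4. Cd8a differed by 0.71 ± 0.32 (adjusted p = 0.354). The interaction, which asks whether the VE822 difference itself differed between labels, passed for 0 of 10 genes and for 0% of all tested genes (1452 tested genes with an unadjusted p below 0.05, none of the 10 among them). It was largest for Cd8a at 0.82 ± 0.43 (limma adjusted p = 0.563) and Cd4 at 0.59 ± 0.39 (adjusted p = 0.647), and without SETD2 KD-labelled VE822 library 4 the Cd4 value was 0.26 (adjusted p = 0.875). These standard errors leave room for sizeable differences between the labels in either coreceptor.

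Within the treated groups the genes rose and fell together from library to library, with exceptions. In SETD2 KD-labelled VE822 libraries, library 3 had the highest value for 9 of 10 genes (all but Cd4) and library 5 the lowest for 8 (all but Cd4 and Cd2). In WT-labelled VE822 libraries, library 5 was highest for 9 genes (all but Cd2) and library 3 lowest for 8 (all but Lck and Cd2). Library 3 nevertheless had the highest Cd2 value of its group, 6.62. The number of genes above the highest untreated library of the same label was 9, 9, 10, 10 and 9 in SETD2 KD-labelled VE822 libraries 1 to 5. It was 5, 9, 2, 10, 10 and 7 in WT-labelled VE822 libraries 1 to 6. In WT-labelled VE822 library 3 the genes above were Lck and Cd2.

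Untreated tumours were more even. Library 1 of the WT-labelled untreated group was the exception, with the highest value for 7 genes (Cd3d, Cd3e, Cd3g, Cd4, Cd8a, Cd5 and Cd6). Its Cd8a value of 5.20 compares with 4.12 to 4.35 in the other 6 libraries, and its Cd3e value of 5.52 with 4.48 to 4.83. The same library had the highest dendritic cell list mean (5.77), endothelial list mean (8.94) and adipocyte list mean (6.85) of its group. Its means of the natural killer (2.73), mast cell (2.92), plasma cell (4.10) and ligand (11.34) lists were also the highest. Its means of the macrophage, neutrophil and B cell lists were not. The part of these in its T cell values was not tested.

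**Figure D3:**
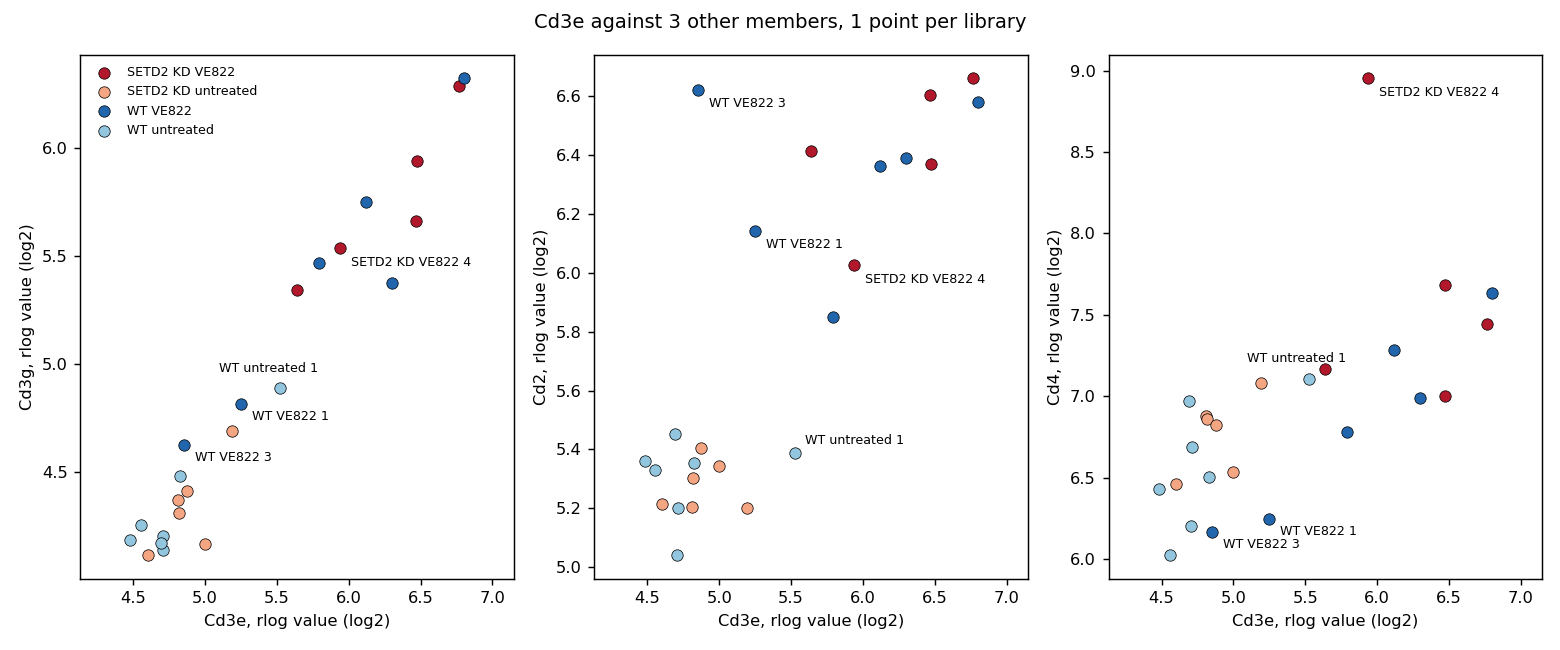
Cd3e against Cd3g, Cd2 and Cd4 in the 24 libraries, both axes in rlog (log2) units. Cd3g follows Cd3e closely, Cd2 separates VE822 from untreated libraries whatever the Cd3e value (WT-labelled VE822 library 3 has a Cd2 value of 6.62 and a Cd3e value of 4.85), and the Cd4 value of 8.95 in SETD2 KD-labelled VE822 library 4 lies apart.

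The likeness of each gene to the mean of the other 9 was measured as Pearson's r of the deviations from the group means over the 24 libraries, as a description that shares libraries and scaling. It was 0.945 for Cd3e, 0.934 for Cd3d, 0.909 for Cd8a, 0.895 for Cd3g, 0.867 for Cd5 and 0.806 for Cd6. It was lower for Lck (0.758), Cd247 (0.619), Cd4 (0.446) and Cd2 (0.235). Leaving out SETD2 KD-labelled VE822 library 4 moved Cd4 to 0.671 and Cd2 to 0.251. With all 24 libraries, Cd4 had an r of 0.752 with the mean of the dendritic cell list. It had 0.721 with the natural killer list and 0.603 with the macrophage list. SETD2 KD-labelled VE822 library 4 had the highest Cd4 value (8.95) of its group. Its dendritic (6.56), natural killer (3.20) and macrophage (12.77) list means were also the highest of that group. The r with these lists was not repeated without that library, so its part in them was not tested. Each of the other genes had a lower r with the dendritic cell list than with the rest of these genes. Which cells carried the Cd4 values was not tested. The 3 neighbouring CD3 genes had r of 0.954 (Cd3d with Cd3e), 0.922 (Cd3e with Cd3g) and 0.878 (Cd3d with Cd3g), and Cd8a, on another chromosome, had 0.936 with Cd3e. Over all other tested genes, the 10 most like the mean of these genes were Tbx21 (0.944), Trac (0.943), Trbc2 (0.936), Sh2d2a (0.935), Ifi47 (0.931), AW112010 (0.93), Serpina3g (0.926), Ubash3a (0.925), Lat (0.925) and Trbc1 (0.924). Trac, Trbc1 and Trbc2 encode the constant regions of the alpha and beta receptor chains, and Tbx21 the transcription factor T-bet.

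Cd28, the costimulatory receptor of T cells, was ordered otherwise. It had 7.58, 7.69, 7.95, 5.44 and 7.97 in SETD2 KD-labelled VE822 libraries, against 4.73 to 5.16 in untreated ones, and its highest WT-labelled value (7.57) was in VE822 library 3, the lowest of that group for Cd3d, Cd3e and Cd3g.

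Other genes of the receptor pathway were taken from 6 lists, which were also chosen with earlier results of these data known. Their counts stand beside the shares of all tested genes. With the SETD2 KD label 10.6% rose and 11.6% fell, and with the WT label 17.2% rose and 17.5% fell. Of the 7 receptor constant region genes, Trac, Trbc1 and Trbc2 were abundant enough to be tested and all 3 rose under both labels. Trac rose by 1.19 ± 0.21 in SETD2 KD-labelled libraries (limma adjusted p = 0.000329) and by 0.77 ± 0.20 in WT-labelled libraries (adjusted p = 0.004). Trbc1 rose by 0.88 (SETD2 KD label) and 0.68 (WT label), and Trbc2 by 0.99 (SETD2 KD label) and 0.82 (WT label). The gamma and delta chain genes Trdc, Tcrg-C1, Tcrg-C2 and Tcrg-C4 had mean rlog values of 1.87, 0.57, 0.85 and 0.01 and were not tested.

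Of 24 genes of proximal signalling, 21 were tested. In SETD2 KD-labelled libraries 14 rose and 1 fell (Ptpn22, a phosphatase that restrains the pathway, by 0.34), with a median difference of 0.47. In WT-labelled libraries 11 rose and 1 fell (Themis, a thymocyte selection protein, by 0.32), with a median of 0.35. The adaptor genes Lat and Sh2d2a rose under both labels. In SETD2 KD-labelled libraries Lat rose by 0.86 and Sh2d2a by 1.13, and in WT-labelled libraries Lat rose by 0.74 and Sh2d2a by 0.95. Zap70, the kinase that binds phosphorylated CD3 tails, differed by 0.13 ± 0.19 in SETD2 KD-labelled libraries (limma adjusted p = 0.666) and rose by 0.84 ± 0.17 in WT-labelled libraries (adjusted p = 0.000675). The interaction of -0.71 ± 0.26 did not pass (adjusted p = 0.475). Lcp2, the adaptor SLP-76, rose by 0.47 in SETD2 KD-labelled libraries and differed by 0.15 in WT-labelled ones (adjusted p = 0.397).

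Of 14 coreceptor and costimulator genes, 12 were tested, and 9 rose in SETD2 KD-labelled and 8 in WT-labelled libraries, with none falling. Cd8b1, which encodes the partner chain of Cd8a, rose by 1.29 ± 0.25 (SETD2 KD label) and 0.84 ± 0.23 (WT label). Cd28 had the largest rises, 2.40 ± 0.31 with the SETD2 KD label and 1.98 ± 0.28 with the WT label. Icos rose by 1.03 (SETD2 KD label) and 0.95 (WT label) and Ctla4, an inhibitory receptor, by 0.89 (SETD2 KD label) and 1.01 (WT label). Thy1 differed by 0.64 in SETD2 KD-labelled libraries (adjusted p = 0.0733) and by 0.54 in WT-labelled ones (adjusted p = 0.0767), neither past the threshold.

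Of 14 transcription factor genes of the T lineage, 12 were tested. In SETD2 KD-labelled libraries 6 rose and 2 fell, and in WT-labelled libraries 7 rose and 2 fell. The counts that fell are not far from the shares of all tested genes that fell, 11.6% (SETD2 KD label) and 17.5% (WT label). Tcf7, which encodes TCF-1, rose by 0.70 (SETD2 KD label) and 0.53 (WT label), and Bcl11b, needed for commitment to the T lineage, by 0.53 (SETD2 KD label) and 0.51 (WT label). Runx3, a factor of CD8 T cells, rose by 0.47 (SETD2 KD label) and 0.48 (WT label), Ikzf3 by 0.88 (SETD2 KD label) and 0.71 (WT label), and Foxp3, the regulatory T cell factor, by 0.68 (SETD2 KD label) and 0.72 (WT label). Gata3 fell by 0.27 in SETD2 KD-labelled and by 0.47 in WT-labelled libraries, and Ets1 fell by 0.28 (SETD2 KD label) and 0.35 (WT label). Both are also expressed by cells other than T cells.

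Of 11 receptor and trafficking genes of T cell homeostasis, all tested, 6 rose in SETD2 KD-labelled and 7 in WT-labelled libraries. Il2rb, a chain of the interleukin-2 and interleukin-15 receptors, rose by 1.32 (SETD2 KD label) and 1.13 (WT label) and Ccr7, a lymph node homing receptor that dendritic cells also use, by 0.66 (SETD2 KD label) and 1.17 (WT label). Il2ra, the high-affinity chain, rose by 0.68 (SETD2 KD label) and 0.84 (WT label), and the shared chain gene Il2rg by 0.52 (SETD2 KD label) and 0.77 (WT label). Il7r, the interleukin-7 receptor gene of resting T cells, differed by 0.58 in SETD2 KD-labelled libraries (adjusted p = 0.0663) and rose by 0.55 in WT-labelled ones. Klf2, a transcription factor of resting T cells and endothelium in this list, fell by 0.35 (SETD2 KD label) and 0.42 (WT label). Of 11 genes for ligands of these receptors, 7 rose in SETD2 KD-labelled and 8 in WT-labelled libraries and none fell. The MHC class II genes H2-Aa and H2-Eb1, whose products CD4 binds, rose by 1.27 and 1.33 in SETD2 KD-labelled libraries and by 1.08 and 1.14 in WT-labelled ones, and H2-Eb1 had the largest rise of the list under both labels. Cd48, the CD2 ligand, rose by 0.43 in SETD2 KD-labelled libraries and differed by 0.21 in WT-labelled ones (adjusted p = 0.209). Alcam, the CD6 ligand, differed by 0.25 in SETD2 KD-labelled libraries (adjusted p = 0.109) and rose by 0.34 in WT-labelled ones. Cd72, for which CD5 binding has been described, rose by 1.00 (SETD2 KD label) and 0.42 (WT label). Cd80, a ligand of CD28, differed by 0.35 in SETD2 KD-labelled libraries (adjusted p = 0.056) and rose by 0.44 in WT-labelled ones. With the SETD2 KD label the median differences were 0.99 for constant regions, 0.67 for coreceptors and costimulators, 0.36 for transcription factors, 0.52 for homeostasis and 0.43 for ligands, beside 0.01 over all tested genes. They were 0.77, 0.60, 0.45, 0.57 and 0.39 with the WT label, in the same order of lists and also beside 0.01. None of the tested genes of the 6 lists passed between the genotype labels, with or without VE822.

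**Figure D4:**
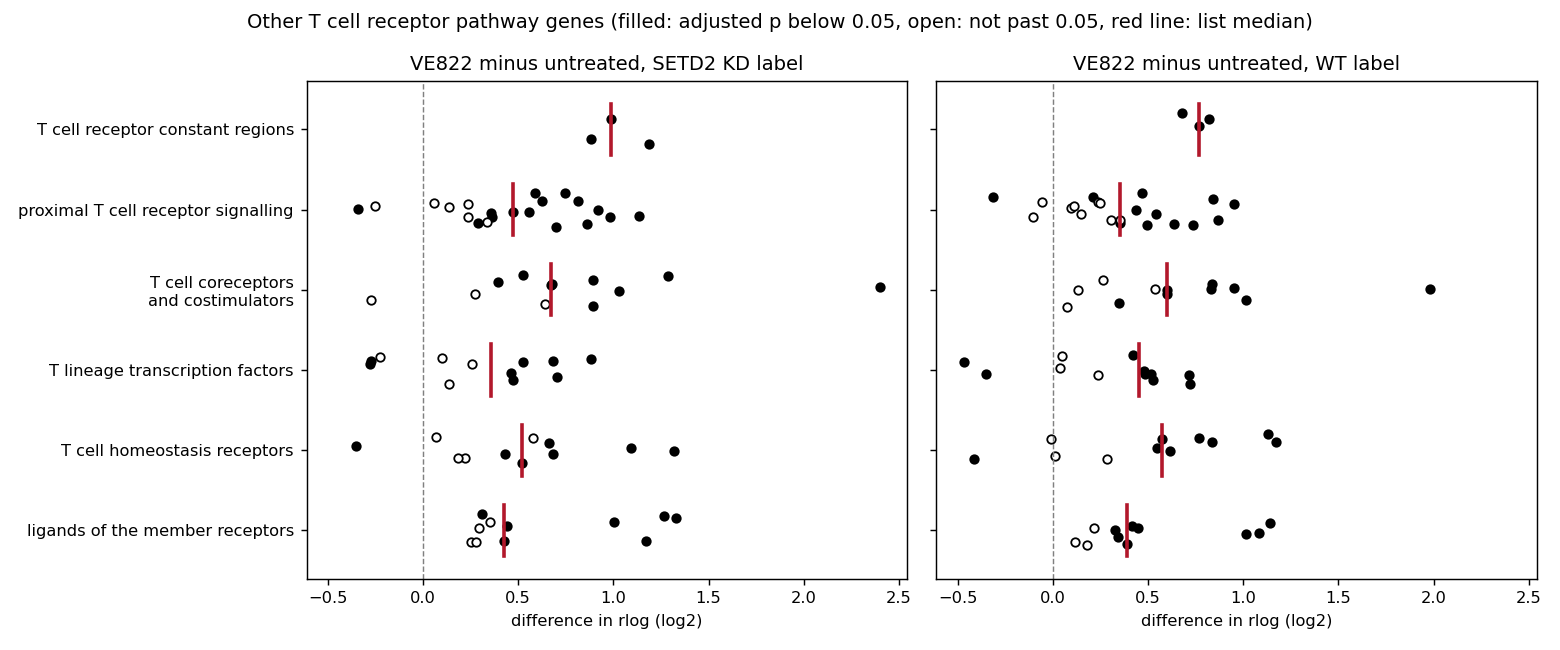
Differences between VE822 and untreated libraries, in rlog (log2) units, for the tested genes of 6 lists, with SETD2 KD-labelled libraries on the left and WT-labelled ones on the right. Points are genes, filled where the adjusted p was below 0.05, and the red line is the list median, which lies between 0.36 and 0.99 on the left and between 0.35 and 0.77 on the right.

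Markers of other cells moved with these genes in part. Counts of the marker lists stand beside the shares of all tested genes. With the SETD2 KD label 10.6% rose and 11.6% fell, and with the WT label 17.2% rose and 17.5% fell. The mean of 9 natural killer cell genes ran from 2.96 to 3.20 in SETD2 KD-labelled VE822 libraries and from 2.57 to 2.63 in untreated ones. With the WT label it ran from 2.67 to 3.31 under VE822 and from 2.48 to 2.73 without treatment. All 6 tested genes of that list rose in SETD2 KD-labelled and 5 of 6 in WT-labelled libraries. It holds Gzma, Prf1 and Nkg7, which cytotoxic T cells also express. Among its more specific genes Klra8 was at 0 in every library and could not show a change, and Klre1 stayed at or below 1.00. Ncr1 ran from 3.12 to 3.75 in SETD2 KD-labelled VE822 and from 2.91 to 3.01 in untreated libraries. Ncr1 rose by 0.39 in SETD2 KD-labelled libraries and differed by 0.25 in WT-labelled ones (adjusted p = 0.061). Klrb1c, the gene of NK1.1, rose by 0.43 (SETD2 KD label) and 0.48 (WT label), and Klrb1f by 0.39 (SETD2 KD label) and 0.45 (WT label). Klri2, too low to be tested, ran from 2.27 to 2.59 in SETD2 KD-labelled VE822 libraries and from 2.03 to 2.20 in untreated ones. With the WT label Klri2 ran from 2.08 to 2.51 under VE822 and from 2.03 to 2.17 without treatment.

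The mean of 8 dendritic cell genes ran from 5.96 to 6.56 in SETD2 KD-labelled VE822 libraries and from 5.36 to 5.74 in untreated ones. With the WT label it ran from 5.62 to 6.69 under VE822 and from 5.13 to 5.77 without treatment. Of these genes 5 rose in SETD2 KD-labelled and 6 in WT-labelled libraries. Flt3, the growth factor receptor of dendritic cell precursors, rose by 0.71 (SETD2 KD label) and 0.62 (WT label), and Xcr1, a receptor of cross-presenting dendritic cells, by 0.83 (SETD2 KD label) and 0.48 (WT label). Zbtb46 differed by 0.24 with the SETD2 KD label (adjusted p = 0.398) and by 0.39 with the WT label (adjusted p = 0.0806). The macrophage list overlapped throughout, with means of 12.27 to 12.77 in SETD2 KD-labelled VE822 libraries and 12.39 to 12.56 in untreated ones, and of 12.08 to 12.74 in WT-labelled VE822 libraries and 12.26 to 12.73 in untreated ones. None of its 8 genes rose and 2 fell under each label, Cd68 by 0.28 (SETD2 KD label) and 0.20 (WT label) and Mrc1 by 0.39 (SETD2 KD label) and 0.36 (WT label). Among all tested genes 11.6% (SETD2 KD label) and 17.5% (WT label) fell. Adgre1 and Csf1r differed by 0.04 and -0.01 with the SETD2 KD label and by -0.10 and -0.05 with the WT label. Of 8 B cell genes 4 were tested. In SETD2 KD-labelled libraries 0 rose and 1 fell, Cd79a by 0.82, whose value of 7.24 in VE822 library 4 was the lowest of the 24. In WT-labelled libraries 2 rose, Cd79b by 0.40 and Cd22 by 0.34, and 0 fell. Ms4a1, the gene of CD20, was below 0 in all libraries.

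Markers of the tumour epithelium moved too. Of 5 tested genes of that list, 3 fell and 1 rose under each label. The keratin genes Krt18 and Krt8 fell by 0.91 and 0.61 with the SETD2 KD label and by 0.84 and 0.58 with the WT label. Cdh1, the gene of E-cadherin, fell by 0.67 (SETD2 KD label) and 0.38 (WT label), while Epcam, another epithelial adhesion gene, rose by 1.00 (SETD2 KD label) and 1.31 (WT label). The mean of the 6 genes of the list ran from 9.87 to 10.23 in SETD2 KD-labelled VE822 libraries and from 10.31 to 10.47 in untreated ones, without overlap. With the WT label it ran from 10.01 to 10.28 under VE822 and from 10.17 to 10.42 without treatment. Of 6 endothelial genes 1 rose under each label, Vwf, the gene of von Willebrand factor, by 1.43 (SETD2 KD label) and 1.24 (WT label). The endothelial list means ran from 8.09 to 9.54 in SETD2 KD-labelled VE822 libraries and from 8.06 to 8.29 in untreated ones, and from 8.04 to 9.52 in WT-labelled VE822 libraries and 7.95 to 8.94 in untreated ones. The adipocyte list had 1 of 6 genes that rose under each label, Lep. In the plasma cell list the 1 tested gene, Sdc1, fell under both labels, and its mean rlog was 14.21. The other genes of that list, Jchain, Mzb1 and Tnfrsf17, had mean rlog values of 2.0, -0.49 and 0.5 and were not tested. Which cells carried the Sdc1 values was not tested. Endothelial and adipocyte counts of 1 in 6 are not far from the shares of all tested genes that rose. These shares were 10.6% (SETD2 KD label) and 17.2% (WT label). The part of these markers in the T cell values was not tested.

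When the macrophage, natural killer and dendritic list means were added to the model as covariates, an alternative chosen after seeing the data, 1 gene passed under each label, Cd2 in both, beside 1.19% (SETD2 KD label) and 7.25% (WT label) of all tested genes that rose in that model. The WT-labelled count of 1 in 10 is near that background. Cd2 differed by 0.91 under either label. The natural killer list shares genes with T cells, and which of these cell types carried the shared change was not tested.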

How the data were processed

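RNA sequencing of 24 Renca tumour libraries in 4 groups was used, and the 4 libraries of human cells were not used here. Values are rlog on the log2 scale as deposited by the authors, with 1 row per Ensembl gene. FastQC, TopHat, HTSeq and DESeq2 and the build GRCm38 are named, without versions, in the submitters' processing notes. Depth and strandedness were not given in the sources used here. Gene names and positions came from GENCODE vM21, which named 98.16% of rows, and promoter sequences from RefSeq (GRCm38.p6).

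Groups were taken from the sample labels, and replicates were numbered in the order of deposition. Of 46078 rows, 16906 held only 0, and limma was run on the 15916 whose mean rlog reached 3, using version 3.58.1 in R 4.3.3 (4 group means, empirical Bayes with a mean-variance trend, Benjamini-Hochberg adjustment, threshold 0.05). The code was tested on simulated data. Members also had an exact two-sided permutation test. The 10 members and the 6 pathway lists were chosen with earlier results of these data known. Named genes were all members, the first 4 measured genes of each list, every receptor constant region, the gene with the largest change in each direction in each list, the 10 most alike genes and the first 3 measured genes of marker lists. Thy1, H2-Aa, Klra8, Klrb1f, Klri2, Gzma, Prf1, Nkg7, Ms4a1, Cd22, Epcam, Vwf, Lep, Sdc1, Jchain, Mzb1 and Tnfrsf17 were named after their values were seen. Some genes that this rule names are not reported here. Alternatives covered filters, scaling, weights, covariates and leaving out libraries.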

Additional observations from a re-analysis of the deposited data

Results flagged for a closer look

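In 5 of 40 checks of a gene within a group, 1 library lay farther from the rest than Dixon's limit allows, and chance alone flags about 1 in 20 such groups. WT-labelled untreated library 1 gave 4 of the 5. Its Cd3d value was 4.53 with the nearest library at 3.97, its Cd3e value 5.52 with the nearest at 4.83, its Cd8a value 5.20 with the nearest at 4.35, and its Cd5 value 4.26 with the nearest at 3.89. The remaining value was Cd247 in WT-labelled untreated library 6, at 4.99 with the nearest library at 4.83.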

How the results depend on the processing

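No paired analysis was possible because the replicate numbers are only names given in the order of deposition. The number in each library's label occurs only once, and what it stands for was not given. These label numbers are higher in all VE822 libraries than in all untreated ones. Among untreated libraries they are also higher in all SETD2 KD-labelled ones than in all WT-labelled ones, while under VE822 the numbers of the labels overlap. Any order that they reflect cannot be told apart from VE822, nor from the genotype label among untreated libraries. With a mean rlog of at least 5 in place of 3, 5 of the 10 genes were still tested, and 4 (SETD2 KD label) and 3 (WT label) of them passed under VE822, the lower counts following from fewer genes tested. With the macrophage, natural killer and dendritic list means as covariates, chosen after seeing the data, 1 gene passed under each label. Among all tested genes 1.19% (SETD2 KD label) and 7.25% (WT label) rose in that model. In that model the differences in SETD2 KD-labelled libraries turned to -0.44 for Cd3d, -0.32 for Cd3e, -0.10 for Cd3g, -0.055 for Lck, -0.040 for Cd4, -0.38 for Cd8a and -0.14 for Cd247, none past the threshold. In WT-labelled libraries they turned to -0.17 for Cd3d, -0.014 for Cd3g, -0.41 for Cd8a and -0.54 for Cd4, also not past it, and the cause was not tested. Leaving out each library in turn gave 8 to 10 genes past the threshold under VE822 with the SETD2 KD label, 8 to 9 with the WT label, and 0 to 0 in both genotype label comparisons and the interaction. The Cd4 call in SETD2 KD-labelled libraries also ended with no filter (difference 0.88, adjusted p = 0.0575), quantile normalisation (0.77, adjusted p = 0.0528) and chromosome medians removed (0.83, adjusted p = 0.0609). Cd247 passed in WT-labelled libraries when only the groups compared were fitted (0.0374), with chromosome medians removed (0.0357) and with library weights (0.0335). Without the 5 libraries that stand apart, chosen after seeing the data, 8 (SETD2 KD label) and 6 (WT label) genes passed. Among all tested genes 15.2% (SETD2 KD label) and 14% (WT label) rose in that fit. Over all settings and comparisons, differences past the threshold in the reported analysis kept direction and call 355 times, lost the call alone 16 times, and lost it with a change of sign 9 times. Those not past it stayed so with the same sign 772 times, gained a call 8 times and changed sign without one 65 times. The exact permutation tests, which are not adjusted, are among these settings. They gave a gain for Cd247 with the WT label, and for Cd247 and Lck between the untreated libraries of the labels. Depth is unknown, and rlog shrinks low genes, so small differences of these genes may go undetected.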
